A study of Mus musculus with 32 samples.

Results

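Liver RNA of 39 genes for collagens and other structural proteins of the extracellular matrix was followed across sex, genotype and diet. The genes are the rows whose gene name is on a list of matrix genes, and they are 39 of the 54532 genes in the deposited table. That choice was made with earlier results of these data known, so shares of members set against all genes are descriptive only. The list was drawn up by function and was split into 7 roles: 5 fibrillar collagens, 6 basement membrane genes, 4 genes of the collagen VI and VIII networks, 3 fibril-associated collagens, 7 genes of elastic fibres and microfibrils, 5 proteoglycans and fibril binders, and 9 adhesive or matricellular genes. The study asked whether SC-435, an inhibitor of the ileal bile acid transporter, changes the liver disease of mice that lack Cyp2c70, the mouse enzyme that hydroxylates bile acids into muricholic acids. Livers of 32 mice on a C57BL/6 background were sequenced at 12 weeks of age, 4 for each combination of sex (female or male), genotype (wild type, WT, or *Cyp2c70* knockout, KO) and diet (chow, or chow holding 0.006% SC-435, about 11 mg/kg/day). The KO mice carry a CRISPR-Cas9 deletion that includes exon 2 of *Cyp2c70* and descend from a founder animal whose offspring were bred for several generations, so all of them carry the allele of that founder. By the labels the drug diet began 3 weeks after weaning, while the age at weaning and the length of feeding in the study's methods place its start at about weaning, so the start is uncertain. All groups shared the strain, the chow base and the age. The libraries hold whole-liver RNA. A change in the number of matrix-producing cells therefore cannot be told apart from a change in RNA per cell.

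The extracellular matrix of the liver is laid down largely by stellate cells and portal fibroblasts. Fibrillar collagens form the load-bearing fibres of scar, type IV collagen and laminins build basement membranes around ducts and vessels, collagen VI makes beaded filaments close to cells, and proteoglycans, elastic fibre proteins and matricellular proteins set fibre thickness, elasticity and cell attachment. In cholestatic disease these genes are known for rising around the bile ducts, while fibronectin and Ecm1 are also made by healthy liver cells.

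The promoter sequences of a few members are given first, because the first pair bears on how reads are assigned. *Col4a1* and *Col4a2*, which encode the partner chains of the main basement membrane collagen, lie head to head on chromosome 8 (GRCm38), *Col4a1* on the minus strand from 11198423 to 11312826 and *Col4a2* on the plus strand from 11312805 to 11449287. Their annotated starts overlap by 22 bases and the 300-base windows around them share 78 bases. Whether the counting used strand is not given in the sources used here, so how reads in the shared bases were assigned is not known. *Col3a1* is shown as the fibrillar collagen with the most reads per length, and *Ecm1* as a member that passed against most of its role. Each window runs 5′ to 3′ on the gene's strand from 250 bases before to 50 bases after a RefSeq start in GRCm38.p6, at chr1:45311288-45311587 (plus strand) for *Col3a1*, chr8:11312777-11313076 (minus) for *Col4a1*, chr8:11312555-11312854 (plus) for *Col4a2* and chr3:95739520-95739819 (minus) for *Ecm1*. Capitals mark CCAAT or TATAAA on either strand.
Col3a1: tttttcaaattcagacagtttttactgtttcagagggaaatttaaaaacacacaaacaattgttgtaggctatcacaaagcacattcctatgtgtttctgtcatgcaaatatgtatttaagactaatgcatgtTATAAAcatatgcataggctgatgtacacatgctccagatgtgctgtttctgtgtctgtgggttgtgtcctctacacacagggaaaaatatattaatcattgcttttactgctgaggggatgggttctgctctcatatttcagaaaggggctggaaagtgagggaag
Col4a1: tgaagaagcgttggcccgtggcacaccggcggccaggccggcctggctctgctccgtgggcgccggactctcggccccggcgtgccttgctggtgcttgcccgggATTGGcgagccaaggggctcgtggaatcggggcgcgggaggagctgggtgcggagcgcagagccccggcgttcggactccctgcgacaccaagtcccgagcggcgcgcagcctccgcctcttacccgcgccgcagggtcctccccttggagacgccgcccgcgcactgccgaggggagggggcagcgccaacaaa
Col4a2: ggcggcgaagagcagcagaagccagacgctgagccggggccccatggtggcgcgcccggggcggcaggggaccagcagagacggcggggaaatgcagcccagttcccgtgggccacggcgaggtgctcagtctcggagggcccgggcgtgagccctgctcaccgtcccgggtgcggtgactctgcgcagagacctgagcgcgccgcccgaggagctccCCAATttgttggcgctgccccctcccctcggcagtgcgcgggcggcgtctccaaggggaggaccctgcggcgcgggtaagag
Ecm1: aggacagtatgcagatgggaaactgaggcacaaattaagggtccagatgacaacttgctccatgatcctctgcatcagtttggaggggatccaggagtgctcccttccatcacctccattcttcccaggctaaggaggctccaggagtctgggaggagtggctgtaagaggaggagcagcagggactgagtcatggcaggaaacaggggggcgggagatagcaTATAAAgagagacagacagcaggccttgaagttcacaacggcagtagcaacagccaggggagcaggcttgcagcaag
A window was found for 26 of the 39 members. CCAAT was in 8 of the 26 windows (30.8%) and in 37.4% of the 32851 windows of the whole RefSeq table. TATAAA was in 6 of the 26 (23.1%) and in 13.6% of all windows. Both strands were searched, and matches of the motifs may overlap each other. In *Ecm1* the TATAAA match begins 27 bases before the start and in *Col3a1* it begins 117 bases before it. These matches describe letters in the windows only.

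Library totals lay between 36476021 and 44771350 counts, with a median of 42232543. Levels below are CPM, counts scaled to library size by TMM, and levels compared between genes are RPKM, the same divided by gene length. *Cyp2c70* itself was at 413 to 838 CPM in the WT libraries other than those of males on SC-435, which were at 271 to 373 CPM, and at 109 to 188 CPM in the KO libraries. The library of male WT chow replicate 1 stood apart. Its TMM factor was 0.622 against 0.912 to 1.26 in the other 31, and its mean correlation with its group was 0.907 against at least 0.954. Its hepatocyte marker sum was 226955 CPM against 93761 to 99269 CPM in the other libraries of its group. The sum of 5 erythroid markers was 677 against 130 to 156 CPM, and that of 7 portal fibroblast markers 94.8 against 39.1 to 42.1 CPM. Its cholangiocyte marker sum, 51.4 CPM, lay within the 47.2 to 56.3 CPM of the others. Member counts, medians and most male genotype calls of named members are given with and without this library. The genotype differences of *Col6a1*, *Col16a1*, *Efemp1* and *Dcn* in chow-fed males passed neither with nor without it.

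Per length, the members spanned a wide range in chow-fed WT females. *Fn1*, for fibronectin, was highest at 197 ± 35.2 RPKM (SD, n = 4), followed by *Ecm1*, for a secreted glycoprotein, at 70.5 ± 11.4 RPKM. *Dcn* at 22.5 ± 2.59 RPKM, *Sparc* at 19.99 ± 2.54 RPKM and *Bgn* at 17.1 ± 0.832 RPKM came next, with spreads that overlap between neighbours. *Col3a1* was in place 10 at 4.82 ± 0.984 RPKM and *Col1a1* in place 15 at 2.07 ± 0.634 RPKM, and *Vcan* was lowest at 0.0143 ± 0.00530 RPKM. In chow-fed KO females *Col3a1* stood in place 6 at 21.9 ± 11.7 RPKM and *Col1a1* in place 9 at 12.7 ± 5.88 RPKM, while *Fn1* remained first at 203 ± 9.81 RPKM.

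In chow-fed females, 25 of the 39 genes rose in KO mice and 1, *Ecm1*, fell (edgeR's quasi-likelihood test, adjusted p under 0.05 over all genes tested). Over all 16205 genes tested, 9.83% rose and 5.05% fell. Of the 25, 15 rose by more than 1 on the log2 scale, against 5.67% of all genes. *Vcan*, counted in both, held few counts and reached the count filter only in comparisons with KO chow mice. The median log2 fold change of the 39 was 0.86 and 36 were positive, while the median over all genes was -0.02 and 47.5% were positive. For 21 members every KO library was above every WT library, a pattern that 12.0% of all genes showed. The fibrillar collagens led, all 5 rising with a median log2 fold change of 1.86, followed by collagen VI and VIII at 1.04 and the adhesive and matricellular genes at 0.90. Leaving out KO chow replicate 2 left 16 members passing and leaving out WT chow replicate 2 left 17, and 14 of the 26 passed whichever library was left out.

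**Figure D1:**
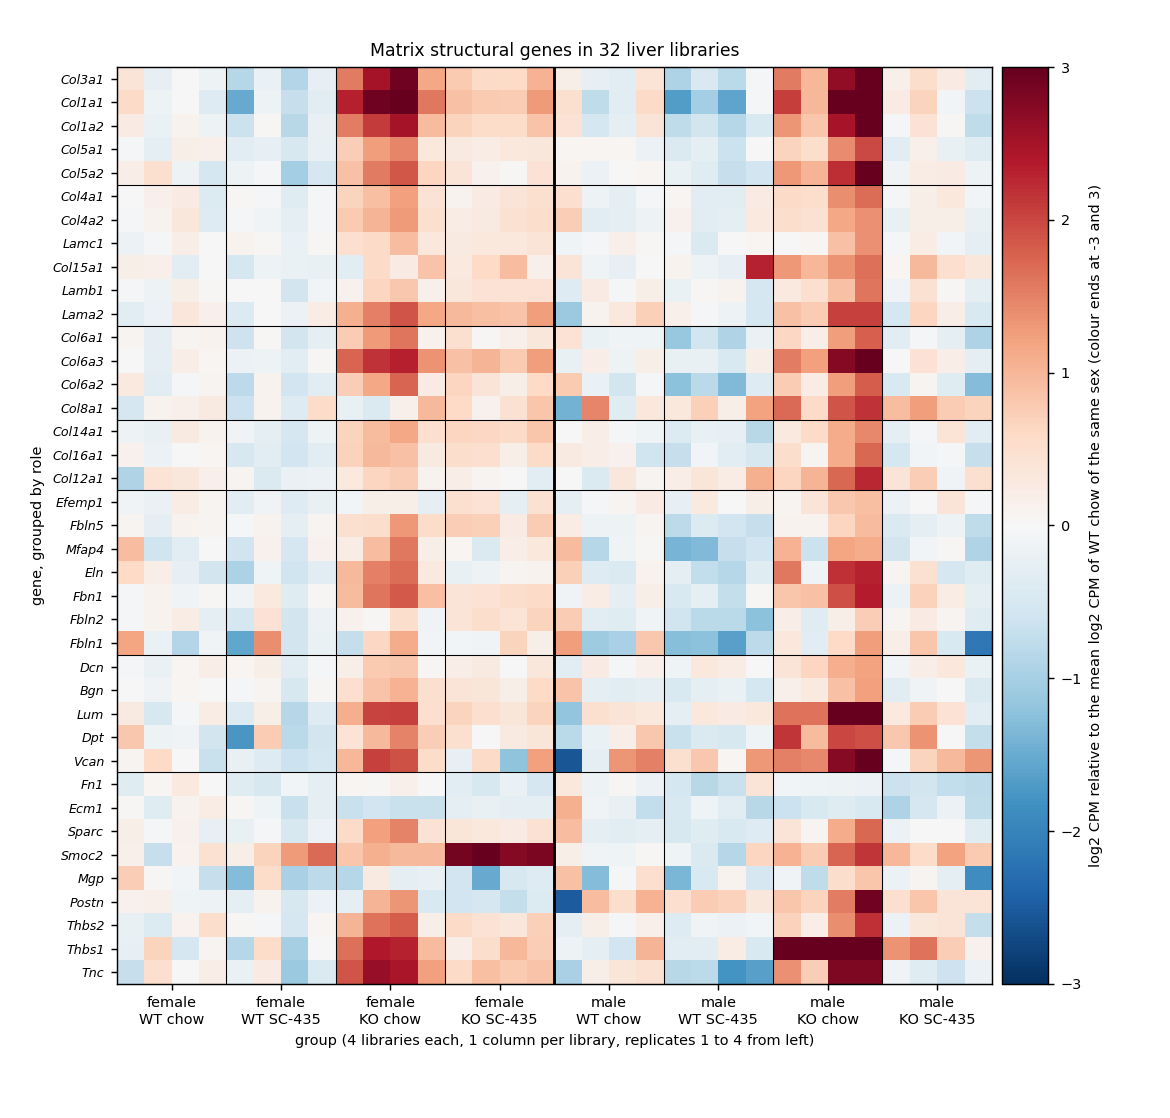
Heatmap of the 39 genes (rows, grouped by role) in the 32 libraries (columns, 4 per group). Colour is the log2 CPM relative to the mean log2 CPM of WT chow libraries of the same sex, red for higher and blue for lower, with colours ending at -3 and 3. The 8 KO chow libraries are red over most rows, male WT chow replicate 1 is blue in *Vcan*, *Postn* and *Lum*, and *Smoc2* is dark red in the female KO SC-435 libraries.

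SC-435 lowered 15 of the 39 genes in KO females and raised 2, *Smoc2* and *Ecm1*. The shares over all 16332 genes tested were 9.23% lower and 8.56% higher. Of the 15, 9 fell by more than 1 on the log2 scale, against 3.7% of all genes. Members had a median of -0.55 on the log2 scale, with 33 of 39 negative, and the median over all genes was -0.02. For 9 members every library on the drug was below every library on chow, and 10.8% of all genes showed that pattern. This comparison and the preceding one share the 4 KO chow libraries. The count depended on single libraries: without KO chow replicate 4, 26 members passed, without KO SC-435 replicate 2 only 6 did, and 10 did when the library left out was replicate 2 on chow or replicate 1 or 3 on SC-435. The 6 members that passed in every such fit were *Ecm1*, *Col1a1*, *Col6a3*, *Smoc2*, *Eln* and *Tnc*.

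In chow-fed males, 3 members rose in KO mice, *Thbs1*, *Col6a3* and *Col15a1*, and 0 fell, against 0.933% higher and 0.151% lower over all 15862 genes. All 3 rose by more than 1 on the log2 scale, as did 0.914% of all genes. The median log2 fold change of the 39 was 1.31, with 37 positive, and over all genes it was 0.04. The members' median standard error was 0.39, against 0.22 in females. In 20 members every KO library was above every WT library, which 7.90% of all genes showed. The number passing changed with the fit, while the direction of the median did not. Without male WT chow replicate 1 it was 11, with DESeq2 20, with the 4 male groups in a single fit 22 and without a filter on low counts 11, while it was 0 without WT chow replicate 2 or 3 and 8 without KO chow replicate 2. The 11 without WT chow replicate 1 were the main 3 with *Col1a1*, *Col3a1*, *Col5a2*, *Col4a1*, *Col4a2*, *Lum*, *Dpt* and *Smoc2*, and the median was then 1.26. Leaving out any of KO replicates 1, 3 and 4 or WT replicate 4, all on chow, left 1.

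SC-435 lowered 24 of the 39 genes in KO males and raised 0, and 17 of them fell by more than 1 on the log2 scale. Over all 15984 genes, 8.36% fell and 8.8% rose, and 4.57% fell beyond 1. All 39 log2 fold changes were negative, with a median of -1.16, and in 23 members every drug library lay below every chow library, against 12.4% of all genes. The 4 KO chow males, shared with the comparison of genotypes, spread widely, and the count was 5 without KO SC-435 replicate 1 or 4, 10 without KO chow replicate 3 and 11 without KO SC-435 replicate 3. The 5 members that passed in every such fit were *Fn1*, *Col6a3*, *Lum*, *Thbs1* and *Tnc*.

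**Figure D2:**
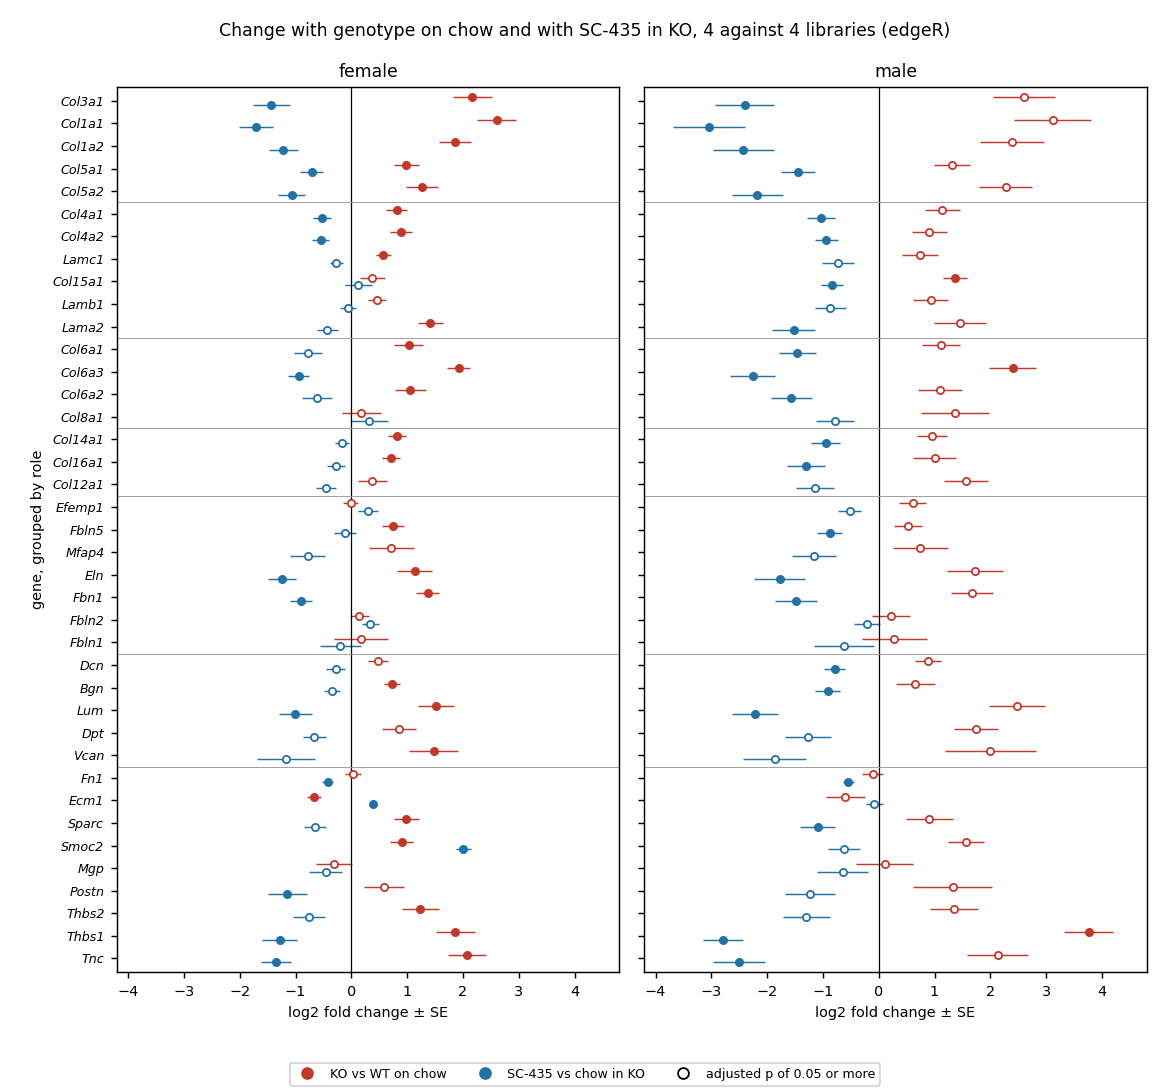
Log2 fold change with its standard error (x axis) for each gene (y axis, grouped by role) in females (left) and males (right), KO against WT on chow in red and SC-435 against chow in KO mice in blue, 4 libraries against 4. Filled points pass at an adjusted p under 0.05. In females 26 red and 17 blue points are filled, in males 3 and 24.

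The mice within a KO chow group differed in the same order over most members. Among female KO chow libraries, replicate 3 held the highest value of 30 of the 39 genes and replicate 4 the lowest of 29. Among male KO chow libraries, replicate 4 held the highest of 34 and replicate 2 the lowest of 26. Such an order was not confined to KO chow. Among male KO SC-435 libraries, replicate 2 held the highest of 25 and replicate 4 the lowest of 28. Among female WT SC-435 libraries, replicate 2 held the highest of 23 and replicate 3 the lowest of 25. In the WT chow groups no replicate held the highest of more than 19. The mean log2 level over the 39 genes, relative to WT chow of the same sex, was 0.61, 1.13, 1.34 and 0.46 in female KO chow replicates 1 to 4 and 0.86, 0.56, 1.56 and 1.97 in the males. The female KO SC-435 libraries lay closer together, at 0.39, 0.35, 0.33 and 0.55, and the male ones were at -0.02, 0.35, 0.11 and -0.36. The female drug group thus stayed above the WT chow range of -0.06 to 0.09, while the male drug group straddled its WT chow range of -0.11 to 0.19.

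**Figure D3:**
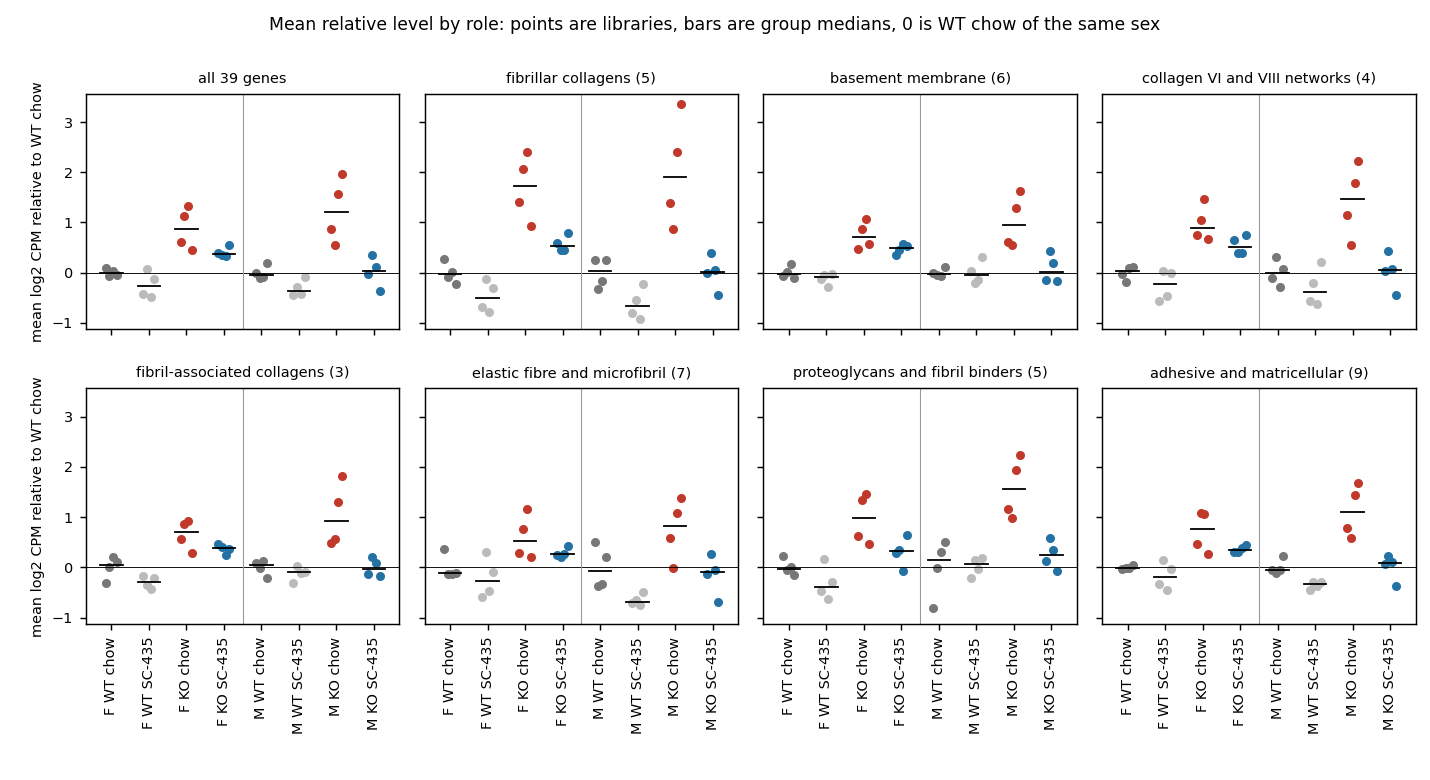
Mean log2 CPM relative to WT chow of the same sex (y axis) in each library (points, bars are group medians) for all 39 genes and for each role, by group (x axis, F female and M male). KO chow medians lie highest in every panel, with a wider spread in males than in females over all 39 genes, and female KO SC-435 medians lie above 0 in each panel.

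All 5 fibrillar collagens rose in chow-fed KO females and fell with SC-435. For the drug in KO females, only *Col1a1* of the 5 passed whichever library was left out. *Col1a1* (chromosome 11, 94936224 to 94953042, plus strand) encodes the main chain of type I collagen, the bulk of scar fibres. In females on chow it was at 19.5, 11.8, 12.99 and 9.97 CPM in the WT libraries and at 65.8, 99.4, 128 and 39.4 CPM in the KO libraries. The groups did not overlap (log2 fold change 2.60, standard error 0.35, adjusted p = 0.00216). Female KO libraries on SC-435 were at 24.1, 22.7, 22.4 and 31.7 CPM and WT libraries on SC-435 at 4.63, 11.8, 8.12 and 10.4 CPM. Every KO library on the drug was below every KO library on chow and above every WT library of either diet (log2 fold change -1.71, standard error 0.30, adjusted p = 0.00659 for the drug in KO mice). Chow-fed males had 15.5, 6.59, 8.94 and 16.7 CPM in WT and 46.5, 22.2, 107 and 225 CPM in KO libraries. The KO libraries spanned a wide range above all WT libraries, and the difference did not pass with all libraries (log2 fold change 3.12, standard error 0.69, adjusted p = 0.076, and without WT replicate 1 3.24, adjusted p = 0.0483). On SC-435 the male KO libraries were at 13.2, 17.6, 10.5 and 7.16 CPM and the WT libraries at 3.45, 5.45, 3.72 and 10.7 CPM, the KO levels overlapping WT chow (log2 fold change -3.04, standard error 0.65, adjusted p = 0.0169 for the drug in KO mice).

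*Col3a1*, whose product co-assembles with type I collagen, had the most reads per length of the fibrillar collagens. WT females on chow had 61.2, 39.5, 46.3 and 42.2 CPM and KO females 138, 263, 353 and 105 CPM, with no overlap (log2 fold change 2.17, standard error 0.35, adjusted p = 0.00409). With the drug, KO females had 80.7, 69.2, 70.5 and 96.5 CPM, all below chow and all above the WT chow libraries (log2 fold change -1.43, standard error 0.33, adjusted p = 0.0167). WT females on the drug had 25.7, 40.9, 25.5 and 39.2 CPM, overlapping WT chow. In males the chow values were 39.6, 29.5, 27.8 and 46.8 CPM for WT and 103, 69.6, 223 and 452 CPM for KO, and on the drug 18.5, 25.4, 20.1 and 33.9 CPM for WT and 39.2, 50.7, 41.5 and 28.4 CPM for KO. The male genotype difference was of a like size but did not pass with all libraries (log2 fold change 2.60, standard error 0.56, adjusted p = 0.0692, and without WT replicate 1 2.63, adjusted p = 0.0468), and the fall with the drug did (log2 fold change -2.40, standard error 0.53, adjusted p = 0.0183). *Col1a2*, the partner chain of type I collagen, had log2 fold changes of 1.86 in KO females and -1.22 with the drug, both passing. *Col5a1* and *Col5a2*, chains of the type V collagen that nucleates fibrils, changed less, by 0.98 and 1.27 in KO females and by -0.71 and -1.07 with the drug, all passing. In KO males all 5 fell with SC-435, by log2 fold changes from -3.04 to -1.45.

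Basement membrane genes had smaller median changes than fibrillar collagens in both sexes. In chow-fed KO females 4 of 6 rose (*Lama2*, *Col4a1*, *Col4a2* and *Lamc1*), with a median log2 fold change of 0.69, and *Lamb1* (0.45) and *Col15a1* (0.38) did not pass. *Col4a1* was at 59.2, 65.3, 70.4 and 44.5 CPM in WT and 93.2, 110.1, 139 and 79.7 CPM in KO females on chow, with no overlap (log2 fold change 0.81, standard error 0.19, adjusted p = 0.0176). On SC-435 the KO females had 63.05, 70.2, 76.7 and 82.8 CPM and the WT females 60.6, 56.3, 45.7 and 56.9 CPM. The drug group overlapped both chow groups, and its fall from KO chow passed narrowly and in only 1 of the 8 fits that left out a library (log2 fold change -0.53, standard error 0.16, adjusted p = 0.0451). Male libraries on chow had 70.6, 45.01, 40.4 and 47.8 CPM in WT and 74.1, 71.6, 131 and 159 CPM in KO mice, and on the drug 52.1, 40.2, 39.99 and 58.8 CPM and 47.4, 56.6, 61.5 and 46.8 CPM. Every KO chow male was above every other male library, the nearest being male WT chow replicate 1 at 70.6 CPM against 71.6 CPM in the lowest KO chow library. The drug lowered *Col4a1* in KO males (log2 fold change -1.03, standard error 0.25, adjusted p = 0.0261), and the genotype difference did not pass with all libraries (log2 fold change 1.14, standard error 0.31, adjusted p = 0.13, and without WT replicate 1 1.31, adjusted p = 0.0376). *Col4a2* had nearly the same changes as its neighbour, 0.89 and -0.55 in females and 0.90 and -0.94 in males.

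*Lama2* encodes the heavy chain of the laminin around muscle-like and stromal cells, and in females it changed most in this role. Its chow values were 1.86, 2.04, 2.94 and 2.59 CPM in WT and 4.87, 6.60, 8.63 and 5.22 CPM in KO females (log2 fold change 1.41, standard error 0.22, adjusted p = 0.0037). KO females on the drug had 4.54, 4.32, 4.23 and 5.59 CPM and WT females 1.76, 2.34, 2.05 and 2.73 CPM, so the drug group overlapped KO chow and stayed above all WT libraries (log2 fold change -0.44, standard error 0.19, adjusted p = 0.135 for the drug in KO mice). Males had 0.858, 2.02, 2.35 and 3.11 CPM and 3.52, 3.20, 7.86 and 7.94 CPM on chow and 2.10, 1.84, 1.71 and 1.31 CPM and 1.31, 2.97, 2.17 and 1.39 CPM on the drug, WT and KO in that order. In males the drug lowered it (log2 fold change -1.52, standard error 0.39, adjusted p = 0.0294), and the genotype difference did not pass (log2 fold change 1.46, standard error 0.47, adjusted p = 0.183, and without WT replicate 1 1.19, adjusted p = 0.0979). *Col15a1*, for a collagen that bridges basement membranes to the fibres beneath, rose in chow-fed KO males (log2 fold change 1.36, standard error 0.22, adjusted p = 0.0317, and without WT replicate 1 1.49, adjusted p = 0.00602) from a range of 5.15 to 8.03 CPM to one of 12.3 to 19.3 CPM. That call was lost in most of the fits that left out a library. *Col15a1* fell with the drug in males (log2 fold change -0.84, standard error 0.20, adjusted p = 0.0235).

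Collagen VI rose in KO females in all 3 chains, although the call for *Col6a1* was kept in only 7 of 14 alternative fits. *Col6a3*, the long chain of collagen VI, was at 10.4, 8.51, 11.8 and 10.7 CPM in WT and 34.6, 46.4, 51.6 and 26.01 CPM in KO females on chow (log2 fold change 1.92, standard error 0.20, adjusted p = 0.00144). KO females on SC-435 had 18.96, 20.9, 17.8 and 24.4 CPM and WT females 9.06, 9.29, 8.31 and 10.6 CPM. The KO drug libraries formed a separate step between WT and KO chow, overlapping neither (log2 fold change -0.94, standard error 0.19, adjusted p = 0.0106 for the drug). Males had 7.21, 9.69, 7.63 and 9.54 CPM in WT and 24.5, 19.8, 56.8 and 73.6 CPM in KO libraries on chow (log2 fold change 2.40, standard error 0.43, adjusted p = 0.0412, and without WT replicate 1 2.31, adjusted p = 0.0292). Male KO libraries on the drug had 8.54, 11.3, 9.67 and 7.01 CPM and WT libraries 7.24, 7.27, 6.19 and 9.70 CPM, the KO drug group overlapping WT chow (log2 fold change -2.25, standard error 0.40, adjusted p = 0.00889 for the drug). *Col6a3* was 1 of 3 members to pass in chow-fed males, although only 2 of the 8 fits without a library kept it, and it was 1 of the members that passed every such fit for the drug in both sexes.

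*Col6a1* and *Col6a2* encode the short chains of collagen VI. *Col6a1* was at 13.3, 10.4, 13.3 and 13.5 CPM in WT and 21.3, 30.4, 38.2 and 13.8 CPM in KO females on chow (log2 fold change 1.03, standard error 0.26, adjusted p = 0.0264), and at 17.7, 12.9, 13.9 and 15.96 CPM in KO and 8.19, 12.9, 8.58 and 10.3 CPM in WT females on the drug. The lowest KO chow library lay just above the highest WT chow library, and the drug difference did not pass (log2 fold change -0.78, standard error 0.26, adjusted p = 0.063). In males *Col6a1* was at 15.01, 9.69, 10.3 and 10.2 CPM and 17.2, 12.6, 26.4 and 38.7 CPM on chow and at 5.02, 7.60, 5.98 and 9.62 CPM and 8.86, 10.7, 9.08 and 5.87 CPM on the drug, WT and KO in that order (log2 fold change -1.46, standard error 0.33, adjusted p = 0.0199 for the drug in KO mice). *Col6a2* rose in KO females (log2 fold change 1.06, standard error 0.28, adjusted p = 0.03). *Col8a1*, for a short-chain network collagen of vessel walls, did not pass in any of the 4 comparisons of KO chow mice, with log2 fold changes of 0.18 and 1.37 for genotype and 0.31 and -0.78 for the drug in females and males.

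Of the fibril-associated collagens, *Col14a1* and *Col16a1* rose in chow-fed KO females and 0 of 3 changed with SC-435 there. *Col14a1*, which regulates fibril packing, was at 64.4, 60.6, 86.1 and 76.1 CPM in WT and 114, 137, 159 and 100.2 CPM in KO females on chow (log2 fold change 0.82, standard error 0.16, adjusted p = 0.00919). On the drug it was at 65.9, 58.3, 49.9 and 64.2 CPM in WT and 111, 109, 106 and 126 CPM in KO females. The KO drug libraries overlapped KO chow and lay above every WT library, with a drug difference of -0.17 (standard error 0.13, adjusted p = 0.407). Male values were 58.4, 66.9, 55.7 and 52.9 CPM and 70.9, 87.03, 125 and 159 CPM on chow and 43.7, 50.1, 49.3 and 32.5 CPM and 47.9, 56.3, 77.9 and 46.6 CPM on the drug. There the drug lowered it (log2 fold change -0.95, standard error 0.26, adjusted p = 0.0366) and the genotype difference did not pass (log2 fold change 0.96, standard error 0.27, adjusted p = 0.132, and without WT replicate 1 0.94, adjusted p = 0.0706). *Col16a1*, which sits on the surface of fibrils and microfibrils, went from 5.61, 4.53, 5.15 and 5.39 CPM in WT to 8.37, 10.1, 9.42 and 6.26 CPM in KO females (log2 fold change 0.72, standard error 0.16, adjusted p = 0.016), and KO females on the drug were at 7.43, 7.35, 5.78 and 7.71 CPM, against 3.68, 4.05, 3.43 and 4.12 CPM in WT females on it. In males it was at 4.48, 4.32, 4.06 and 2.49 CPM and 5.39, 3.94, 8.06 and 12.4 CPM on chow and at 2.31, 3.56, 3.01 and 2.68 CPM and 2.60, 3.55, 3.62 and 2.30 CPM on the drug, WT and KO in that order (log2 fold change -1.30, standard error 0.34, adjusted p = 0.0318 for the drug in KO mice). *Col12a1* did not pass, with 0.38 in KO females and 1.57 in KO males.

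Elastic fibre genes divided within their role. In KO females on chow, *Fbn1*, *Eln* and *Fbln5* rose, while *Efemp1* (-0.01), *Fbln1* (0.18), *Fbln2* (0.15) and *Mfap4* (0.72) did not pass. *Fbn1*, the fibrillin of microfibrils, was at 5.35, 5.90, 5.15 and 5.70 CPM in WT and 10.7, 16.7, 19.7 and 10.2 CPM in KO females (log2 fold change 1.37, standard error 0.21, adjusted p = 0.00313). With the drug, KO females were at 7.22, 7.40, 7.94 and 8.16 CPM, between the chow groups and overlapping neither, and WT females at 5.15, 6.80, 4.25 and 5.66 CPM (log2 fold change -0.90, standard error 0.20, adjusted p = 0.0147 for the drug in KO mice). Male values were 3.82, 4.76, 3.32 and 4.64 CPM in WT and 7.24, 7.58, 15.7 and 20.8 CPM in KO mice on chow, and 2.98, 3.33, 2.48 and 4.21 CPM and 3.60, 6.66, 4.75 and 3.32 CPM on the drug. The drug lowered *Fbn1* in KO males (log2 fold change -1.48, standard error 0.37, adjusted p = 0.0283), and the genotype difference, with no overlap, did not pass (log2 fold change 1.67, standard error 0.38, adjusted p = 0.0807, and without WT replicate 1 1.62, adjusted p = 0.0506). *Eln*, for elastin, had log2 fold change 1.14, standard error 0.31, adjusted p = 0.0357 in KO females and fell with the drug (log2 fold change -1.25, standard error 0.25, adjusted p = 0.0106).

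*Efemp1*, for a fibulin of microfibrils, had the most reads per length of this role and lay between 5.15 and 14.2 CPM over the 32 libraries. It was at 9.51, 8.81, 11.9 and 10.8 CPM in WT and 9.61, 11.4, 11.5 and 8.35 CPM in KO females on chow, overlapping throughout (log2 fold change -0.01, standard error 0.14, adjusted p = 0.959). On the drug the females had 7.995, 9.41, 7.75 and 8.69 CPM in WT and 14.2, 13.7, 8.30 and 13.9 CPM in KO libraries, with KO replicate 3 well below the other KO libraries (log2 fold change 0.30, standard error 0.17, adjusted p = 0.266 for the drug in KO mice). In males it was at 5.15, 5.99, 6.64 and 7.44 CPM and 6.59, 8.22, 10.9 and 11.8 CPM on chow and at 5.28, 7.67, 6.30 and 7.05 CPM and 5.52, 6.30, 8.16 and 6.09 CPM on the drug, and it passed in none of the male comparisons. The 1 comparison in which it passed was KO against WT females with both on the drug (log2 fold change 0.57, standard error 0.16, adjusted p = 0.0456).

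Among proteoglycans and fibril binders, *Lum*, *Bgn* and, on few counts, *Vcan* rose in KO females. *Lum*, for lumican, which limits fibril diameter, was at 11.2, 6.70, 9.15 and 10.9 CPM in WT and 19.8, 37.9, 38.9 and 13.3 CPM in KO females on chow (log2 fold change 1.52, standard error 0.32, adjusted p = 0.0128). On SC-435 KO females had 14.8, 13.3, 11.9 and 14.7 CPM and WT females 6.95, 10.6, 5.15 and 7.07 CPM. KO replicate 4 on chow, at 13.3 CPM, lay within the drug group, and the fall with the drug passed in 2 of the 8 fits without a library (log2 fold change -1.002, standard error 0.29, adjusted p = 0.0407). Chow-fed males had 2.07, 6.51, 6.14 and 5.83 CPM in WT and 14.4, 14.6, 37.6 and 45.1 CPM in KO libraries (log2 fold change 2.47, standard error 0.50, adjusted p = 0.0582, and without WT replicate 1 2.20, adjusted p = 0.0288), and 3.80, 5.88, 5.56 and 5.82 CPM and 5.79, 8.02, 6.34 and 3.77 CPM on the drug. The male fall with the drug passed whichever library was left out (log2 fold change -2.22, standard error 0.41, adjusted p = 0.0102).

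*Dcn*, for decorin, the small proteoglycan with the most reads per length among them, moved little in females. It was at 125, 115, 136 and 149.7 CPM in WT and 147, 224, 229 and 134 CPM in KO females on chow (log2 fold change 0.47, standard error 0.18, adjusted p = 0.108), with overlap. KO females on the drug were at 150.2, 157, 130.5 and 164 CPM and WT females at 136, 147, 103 and 125 CPM (log2 fold change -0.28, standard error 0.17, adjusted p = 0.281 for the drug in KO mice). Males had 73.95, 111, 92.2 and 104 CPM and 123, 148, 200.3 and 216 CPM on chow and 86.6, 117, 109.8 and 94.98 CPM and 88.8, 108, 118 and 82.4 CPM on the drug, and the drug lowered it in KO males (log2 fold change -0.79, standard error 0.19, adjusted p = 0.024). *Bgn*, for biglycan, rose in KO females (log2 fold change 0.73, standard error 0.13, adjusted p = 0.0074) and fell with the drug in males (-0.91). *Dpt*, for dermatopontin, did not pass in females (0.86 and -0.66). *Vcan*, for versican, passed in KO females (log2 fold change 1.47, standard error 0.43, adjusted p = 0.0458), but the 32 libraries held 440 counts of it in all and it did not reach the count filter in the comparisons without KO chow mice.

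The adhesive and matricellular genes held members that rose strongly and members that went against the rest. *Tnc*, for tenascin-C, a glycoprotein of wound matrix, was at 0.620, 1.43, 0.995 and 1.16 CPM in WT and 3.77, 6.20, 5.57 and 2.38 CPM in KO females on chow (log2 fold change 2.07, standard error 0.33, adjusted p = 0.00425). KO females on the drug had 1.496, 1.91, 1.75 and 1.84 CPM, below all KO chow libraries and above all WT chow libraries, and WT females had 0.878, 1.19, 0.459 and 0.739 CPM (log2 fold change -1.35, standard error 0.27, adjusted p = 0.0104 for the drug in KO mice). In males it was at 0.468, 1.07, 1.21 and 1.30 CPM in WT and 2.48, 1.59, 6.67 and 6.68 CPM in KO libraries on chow and at 0.526, 0.543, 0.264 and 0.295 CPM and 0.876, 0.729, 0.607 and 0.842 CPM on the drug. The male groups on chow did not overlap but the difference did not pass (log2 fold change 2.13, standard error 0.55, adjusted p = 0.109, and without WT replicate 1 1.89, adjusted p = 0.0674), and the drug lowered *Tnc* whichever library was left out (log2 fold change -2.50, standard error 0.47, adjusted p = 0.0105). *Thbs1*, for thrombospondin-1, an activator of latent TGF-beta, rose in KO mice of both sexes. It was at 0.663, 0.602, 0.495 and 1.504 CPM in WT and 8.71, 13.1, 15.1 and 6.82 CPM in KO males on chow (log2 fold change 3.76, standard error 0.44, adjusted p = 0.00949, and without WT replicate 1 3.67, adjusted p = 0.0094) and at 1.90, 2.31, 1.24 and 0.818 CPM in KO males on the drug (log2 fold change -2.79, standard error 0.36, adjusted p = 0.00223). That was the largest log2 fold change of the 39 in chow-fed males, and it passed in 6 of the 8 fits without a library, not without WT chow replicate 2 or 3. In females its changes were 1.86 for genotype and -1.29 for the drug, both passing.

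*Fn1* encodes fibronectin, which hepatocytes also secrete into plasma. Females on chow had 1779, 2379.6, 2780.3 and 2279 CPM in WT and 2357, 2343, 2521 and 2245 CPM in KO libraries, with overlap (log2 fold change 0.03, standard error 0.14, adjusted p = 0.908). On SC-435 the WT libraries had 1769, 1629, 2144 and 1876 CPM and the KO libraries 1798, 1632, 1985 and 1610.4 CPM. Every KO library on the drug was below every KO library on chow (log2 fold change -0.43, standard error 0.10, adjusted p = 0.0207), and the WT groups overlapped (log2 fold change -0.32, standard error 0.14, adjusted p = 0.245). Males had 2358, 1708, 1945 and 1696 CPM in WT and 1809, 1751, 1719 and 1697 CPM in KO libraries on chow, and 1318, 1079, 1211 and 2497 CPM and 1223, 1299.6, 1149 and 1107 CPM on the drug. The genotype difference did not pass (log2 fold change -0.11, standard error 0.19, adjusted p = 0.819, and without WT replicate 1 -0.02, adjusted p = 0.945), and the fall in KO males did, whichever library was left out (log2 fold change -0.54, standard error 0.10, adjusted p = 0.0103). *Fn1* thus fell with the drug in KO mice of both sexes, while its KO chow level did not pass against WT chow in either. In WT males the drug libraries lay below all chow libraries except for the 1 at 2497 CPM, and the difference did not pass. *Sparc*, which binds collagen as it is secreted, rose in KO females (log2 fold change 0.99, standard error 0.22, adjusted p = 0.0162) and fell with the drug in males (log2 fold change -1.10, standard error 0.31, adjusted p = 0.0418).

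*Smoc2* and *Ecm1* changed against the rest of their role. *Smoc2* (chromosome 17, 14279506 to 14404790, plus strand) encodes a calcium-binding matricellular protein. WT females on chow had 5.82, 3.22, 5.63 and 7.14 CPM and KO females 9.32, 11.02, 10.3 and 10.4 CPM, with no overlap (log2 fold change 0.90, standard error 0.21, adjusted p = 0.0178). KO females on SC-435 had 38.5, 53.6, 35.5 and 36.9 CPM, far above every other group. WT females on it had 5.88, 8.29, 12.7 and 17.2 CPM, replicates 3 and 4 lying above every female KO chow library. The rise with the drug in KO females passed whichever library was left out (log2 fold change 2.01, standard error 0.13, adjusted p = 0.000182), and KO females on the drug exceeded WT chow by log2 fold change 2.91, standard error 0.22, adjusted p = 8.04e-05. Males had 5.50, 4.54, 4.46 and 5.004 CPM in WT and 10.1, 8.27, 16.2 and 21.5 CPM in KO libraries on chow and 4.47, 3.59, 2.69 and 7.56 CPM and 9.73, 7.08, 11.3 and 8.45 CPM on the drug. The male genotype difference on chow did not pass with all libraries (log2 fold change 1.56, standard error 0.32, adjusted p = 0.0575, and without WT replicate 1 1.61, adjusted p = 0.0293). In KO males the drug groups overlapped and the log2 fold change was negative, without passing (log2 fold change -0.62, standard error 0.29, adjusted p = 0.156). The difference in drug response between the sexes passed for *Smoc2* (interaction, female minus male, log2 fold change 2.60, standard error 0.33, adjusted p = 0.00466). *Smoc2* was the only member to pass that interaction in each of the 22 fits run, the alternatives included, with interaction values from 2.34 to 2.78.

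*Ecm1* (chromosome 3, 95734147 to 95739569, minus strand) was at 181, 137, 188 and 205 CPM in WT and 112, 118, 110.0 and 110.3 CPM in KO females on chow. Every KO library was below every WT library (log2 fold change -0.67, standard error 0.12, adjusted p = 0.00748). KO females on SC-435 had 146, 150.5, 146 and 143 CPM, all above KO chow (log2 fold change 0.38, standard error 0.07, adjusted p = 0.00633), and WT females on it 179, 159.8, 110.3 and 147 CPM. In males it was at 293, 131, 119.6 and 84.8 CPM in WT and 89.2, 102, 108 and 103 CPM in KO libraries on chow and at 103, 128, 111 and 78.5 CPM and 74.2, 98.6, 125 and 83.1 CPM on the drug, overlapping, and no male comparison passed (log2 fold change -0.60, standard error 0.34, adjusted p = 0.442, and without WT replicate 1 -0.13, adjusted p = 0.602 for genotype on chow). *Postn*, for periostin, did not pass in KO females on chow (log2 fold change 0.58, standard error 0.35, adjusted p = 0.292) and fell with the drug there (log2 fold change -1.15, standard error 0.35, adjusted p = 0.049), a call kept in 2 of the 8 fits without a library. *Mgp*, for matrix Gla protein, an inhibitor of calcification, passed in none of the comparisons.

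**Figure D4:**
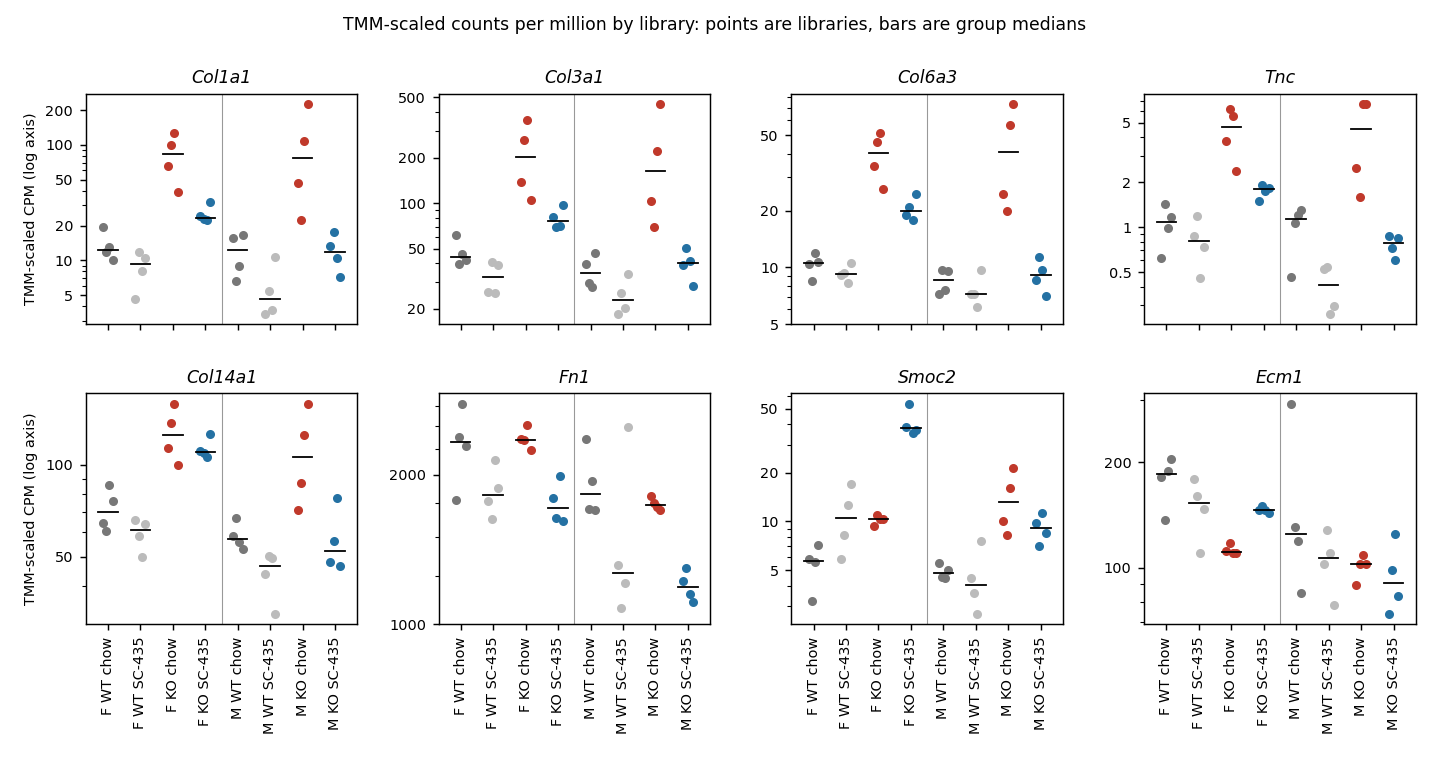
TMM-scaled CPM (log y axis) of 8 genes in each library (points) by group (x axis, F female and M male, bars are group medians). *Col1a1*, *Col3a1*, *Col6a3* and *Tnc* are highest in KO chow and lower on SC-435, *Col14a1* stays up in female KO SC-435, *Fn1* is lower in the KO SC-435 groups, *Smoc2* peaks at 35.5 to 53.6 CPM in female KO SC-435, and *Ecm1* is at 110 to 118 CPM in female KO chow against 137 to 205 CPM in female WT chow.

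Matrix genes of treated KO females did not all return to the WT chow level. Against WT chow, KO females on SC-435 had 16 of 38 tested members higher and 1, *Postn*, lower (-0.56, adjusted p = 0.00748), with 8.73% of all 15881 genes higher and 7.3% lower. The median log2 fold change was 0.39, against 0.86 for KO chow, and the comparisons share the 4 WT chow libraries. In 18 members every KO drug library was above every WT chow library, against 11.6% of all genes. Apart from *Smoc2*, all 16 were below 1 on the log2 scale, led by *Col6a3* (0.99), *Lama2* (0.98), *Col1a1* (0.89), *Col3a1* (0.74) and *Col14a1* (0.66). *Tnc* (0.73, adjusted p = 0.0687) and *Eln* (-0.10, adjusted p = 0.786) did not pass. Without KO SC-435 replicate 2, 10 members passed, and with the 4 female groups in a single fit 7 did.

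With both genotypes on SC-435, 24 of 38 tested members were higher in KO females and 0 lower, against 6.23% and 4.69% of all 15869 genes. Members had a median log2 fold change of 0.60, and for 23 members every KO library was above every WT library, against 9.07% of all genes. All 6 basement membrane genes passed here, with *Col15a1* at 0.79 and *Lamb1* at 0.55, and so did 4 of 5 fibrillar collagens. Without KO SC-435 replicate 2 or 4, 15 passed, and in the single fit of 4 female groups 12.

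In males the members' median in treated KO mice was near that of WT chow. Against WT chow, 0 of 38 tested members passed in either direction in KO males on SC-435 (edgeR), with 2 at an unadjusted p under 0.05 and 2 called by DESeq2. Over all 15395 genes, 0.169% were higher and 0.039% lower. The median log2 fold change was -0.02, and without male WT chow replicate 1 it was -0.03 with 2 members passing. With both genotypes on SC-435, 0 of 38 passed in males, with 11 at an unadjusted p under 0.05 and 3 called by DESeq2, against 0.013% of all genes higher and 0.0194% lower. The median there was 0.24, with 31 of 38 positive. The members' median standard errors in these comparisons were 0.27 and 0.22.

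In WT mice SC-435 changed 0 members at the threshold in either sex (edgeR). In WT females 7 of 38 were at an unadjusted p under 0.05, DESeq2 called 2, and 2.4% of all genes rose and 1.88% fell. Their median log2 fold change was -0.26 and 37 of 38 were negative, *Smoc2* being the exception (log2 fold change 1.01, standard error 0.33, adjusted p = 0.126). In WT males 9 of 38 were at an unadjusted p under 0.05, DESeq2 called 0, and 0.0131% of all genes rose and 0.0263% fell. The median was -0.38, with 31 of 38 negative, and without male WT chow replicate 1 it was -0.32 with 1 member passing.

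Whether the drug acted differently by genotype was tested as an interaction. In females 0 members passed (edgeR), with 10 at an unadjusted p under 0.05 and 3 called by DESeq2, while 2.64% of all genes passed. The female median was -0.35, with 29 of 39 negative. The interaction of *Col1a1* was -1.08 (standard error 0.45, adjusted p = 0.193). In males 0 passed, with 16 at an unadjusted p under 0.05 and 4 called by DESeq2, and 0.0906% of all genes passed. The male median was -0.91, and without WT chow replicate 1 it was -0.996 with 0 members passing. The largest male values were those of *Thbs1* (-2.47, adjusted p = 0.0962), *Lum* (-2.26, adjusted p = 0.123) and *Col6a3* (-2.10, adjusted p = 0.0945). Between the sexes, the genotype effect on chow differed for 0 members, with 3 at an unadjusted p under 0.05 and 0 called by DESeq2, and 0.0235% of all genes passed. The median difference was -0.28, and without male WT chow replicate 1 it was -0.34 with 0 members passing. The difference in genotype effect was female minus male -0.46 for *Col1a1* with a standard error of 0.77. For the drug in KO mice the sexes differed for 1 member, *Smoc2*, against 0.211% of all genes, with 13 members at an unadjusted p under 0.05. All 39 interaction values, female minus male, were positive, with a median of 0.66, against 49.7% positive over all genes.

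Further genes of matrix assembly were listed by function. Of 21 tested collagen maturation enzymes and chaperones, 6 rose and 1 fell in chow-fed KO females, and 0 rose and 7 fell with SC-435. *Lox*, which cross-links collagen and elastin, had log2 fold change 1.997, adjusted p = 0.0182 and log2 fold change -1.78, adjusted p = 0.0129, and *Serpinh1*, the collagen chaperone, log2 fold change 0.97, adjusted p = 0.0103 and log2 fold change -0.62, adjusted p = 0.0327. *P4ha2*, a collagen prolyl hydroxylase subunit, was the 1 that fell (log2 fold change -1.22, adjusted p = 0.00292). In males 0 of 21 passed for genotype (edgeR), with 11 at an unadjusted p under 0.05. The male median log2 fold change for genotype was 0.79, with 15 of 21 positive, and 11 fell with the drug. Of 17 tested collagens outside the list, 4 rose in KO females, among them *Col4a5* (log2 fold change 2.08, adjusted p = 0.00231) and *Col4a6* (log2 fold change 1.65, adjusted p = 0.0207), alternative basement membrane chains. With SC-435 in KO females, 3 of 18 tested rose (*Col25a1*, *Col4a3* and *Col27a1*) and 2 fell (*Col4a5* and *Col6a6*), with a median log2 fold change of 0.11 and 10 positive, so this list had no common fall. In males 1 of 18 rose with genotype, *Col4a5*, and 2 fell with the drug, with a median of -0.39. Of 39 other structural matrix genes tested, 13 rose and 1, *Ogn*, fell, led by *Fbn2* (log2 fold change 4.63, adjusted p = 0.0028) and *Mfap2* (log2 fold change 2.21, adjusted p = 0.00995), and with SC-435 11 fell and 1 rose, *Fbn2* again the most changed (log2 fold change -4.54, adjusted p = 0.00528). In males 14 of these 39 fell with the drug and 1, *Lamb3*, rose.

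Marker genes of several cell types moved with the matrix genes, and their part in the results was not tested. The summed level of 10 cholangiocyte markers was 57.5 to 89.5 CPM in WT and 156 to 327 CPM in KO females on chow, and 121 to 169 CPM in KO females on SC-435, and 6 of the 9 tested rose with genotype. In chow-fed males it was 47.2 to 56.3 CPM in WT and 170 to 1211 CPM in KO mice, the highest being KO replicate 4, which also held the highest matrix values. The sum of 10 stellate cell markers was 165 to 237 CPM in WT and 197 to 315 CPM in KO females on chow, and 2 of 10 rose, *Pdgfrb* (log2 fold change 1.27, adjusted p = 0.00441) and *Cygb* (log2 fold change 0.996, adjusted p = 0.00662), both expressed in stellate cells. Of the 7 portal fibroblast markers, 3 rose, and the sum of the 7 was 64.8 to 110 CPM in WT and 81.2 to 108 CPM in KO females. Only 4 of the 7 reached the count filter in the female comparisons without KO chow mice. In females the remaining markers were thus tested only where KO chow mice entered the fit. Of 6 myofibroblast and smooth muscle markers 0 passed (edgeR), 1 having an unadjusted p under 0.05, with sums of 11.7 to 28.6 CPM in WT and 8.28 to 17.1 CPM in KO females. Macrophage markers rose in 5 of 8, with sums of 254 to 284 CPM and 333 to 470 CPM, and hepatocyte markers, whose sums were 107882 to 136576 CPM in WT and 71003 to 94464 CPM in KO females, fell in 5 of 10 and rose in 1. With SC-435 in KO females, 7 of 8 macrophage, 4 of 7 portal fibroblast, 3 of 9 cholangiocyte and 1 of 10 stellate cell markers fell, and the macrophage sum was 204 to 320 CPM. The portal fibroblast sum was 95.96 to 119.8 CPM there, not below that on chow. With SC-435 in KO males, 7 of 9 cholangiocyte, 3 of 10 stellate cell, 2 of 8 macrophage and 2 of 6 portal fibroblast markers fell, and the cholangiocyte sum was 68.8 to 78.7 CPM. The stellate cell sum was 159 to 337 CPM in KO males on chow and 108 to 146 CPM on the drug. In chow-fed KO males 4 of 9 cholangiocyte markers rose and 0 of 10 stellate cell markers passed (edgeR), 3 of them at an unadjusted p under 0.05. Liver identity was checked by these hepatocyte markers, which summed to at least 60956 CPM in every library. The sums of 6 mesothelial markers were 2.84 to 16.4 CPM over all libraries.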

How the data were processed

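Livers had been perfused with PBS and frozen, and poly-A-selected mRNA was sequenced commercially. The authors deposited a table of raw counts per gene for the 32 libraries. Per the submitters' processing notes the tools were HISAT2 2.0.5, featureCounts 1.5.0-p3, DESeq2 1.20.0 and GATK 4.1.1.0, with mouse build mm10. Whether counting used strand is not given in the sources used here. The table's 32 FPKM columns and the columns of the authors' own comparisons, which hold group means, fold changes and p-values, were not used.

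Counts were tested in R 4.3.3 with edgeR 4.0.16: filterByExpr, TMM scaling and the quasi-likelihood test on the 2 groups compared, with Benjamini-Hochberg adjustment over all genes tested. A gene passed at an adjusted p under 0.05. There were 10 comparisons of 2 groups and 4 interactions. The standard error is the absolute log2 fold change over the square root of F. The labels give the replicates as separate samples and the study describes them as individual animals, so p-values measure the spread between these mice. No pair of the 48 within-group pairs looked like a repeated library, the lowest chi-square per gene being 20.3. Of the 54532 genes, 22412 had no count.

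The members and gene lists were chosen with earlier results of these data known. In each role every library's value was given for the member with the highest mean RPKM and for the one with the largest female KO against WT change among those with a mean of at least 50 counts. Members passing against most of their role were added, and *Thbs1* was added after its values were seen. Alternatives were DESeq2 1.42.0, its median-of-ratios size factors, total counts, no count filter, a log2 limit of 1 as in the study, a single fit of 4 groups, the replicate number as a block, and each library left out. On simulated data with 200 genes changed 4-fold, edgeR recovered 199 for the female genotype comparison over 15858 genes, with 13 wrong calls, DESeq2 199 with 47 wrong calls, and edgeR 170 for the male one over 15502 genes, with 13 wrong calls. For the interaction of sex and genotype edgeR recovered 154 over 16661 genes, with 6 wrong calls.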

Additional observations from a re-analysis of the deposited data

Results flagged for a closer look

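In 128 sets of 4 libraries (16 genes in 8 groups), 7 held a library far from the other 3 by Dixon's test, which chance alone flags in about 1 in 20 sets. *Col6a1* was at 10.4 CPM in female WT chow replicate 2, with the others at 13.3 to 13.5 CPM, and at 15.0 CPM in male WT chow replicate 1, with the others at 9.69 to 10.3 CPM. *Lum* was at 2.07 CPM in male WT chow replicate 1, with the others at 5.83 to 6.51 CPM, and at 3.80 CPM in male WT SC-435 replicate 1, with the others at 5.56 to 5.88 CPM. *Efemp1* was at 8.30 CPM in female KO SC-435 replicate 3, with the others at 13.7 to 14.2 CPM. *Fn1* was at 2497 CPM in male WT SC-435 replicate 4, with the others at 1079 to 1318 CPM. *Smoc2* was at 53.6 CPM in female KO SC-435 replicate 2, with the others at 35.5 to 38.5 CPM.

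The response of *Smoc2* to SC-435 in KO mice differed between the sexes, with an interaction of 2.60 on the log2 scale, female minus male, in edgeR's quasi-likelihood test.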

How the results depend on the processing

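Among the 39 genes, *Smoc2* kept its sex difference in drug response in all 22 fits, and 0 members passed the sex by genotype interaction in any. Requiring a log2 fold change beyond 1 left 15 of 26 in chow-fed KO females, 10 of 17 for the drug in KO females, 1 of 17 for treated KO females against WT chow and 7 of 24 for both genotypes on the drug. A single fit of 4 groups gave 7, 1, 12 and 22 members for treated KO females against WT chow, the drug in WT females, both genotypes of females on the drug and chow-fed KO males. DESeq2 gave 2 for the drug in WT females, 20 in chow-fed KO males, 2 for treated KO males against WT chow, 3 for both genotypes of males on the drug, and 3 and 4 for the female and male genotype by drug interactions. Without a count filter 11 passed in chow-fed KO males and 1 in the male interaction, and with total counts 2 in the female interaction. The causes were not tested.

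With the replicate block, 9 passed for the drug in KO females, 11 for it in KO males and 0 in chow-fed KO males. Deviations of same-numbered libraries correlated at -0.134 to 0.141, so the numbers were not taken to pair the samples. At most 2 of 4 numbers correlated best with themselves in a comparison, and no other count moved by over 1.5 times under the block.

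Leaving out 1 library gave 16 to 28 members in chow-fed KO females, 6 to 26 for the drug in KO females, 10 to 19 for treated KO females against WT chow and 15 to 27 for both female genotypes on the drug. In males it gave 0 to 11 for KO on chow, 5 to 32 for the drug in KO, 0 to 2 for treated KO against WT chow and 0 to 1 for the drug in WT. The interaction of genotype and drug had 0 to 5 in females, with 5 without KO chow replicate 4 and 1 without KO chow replicate 1 or WT chow replicate 2. It had 0 to 1 in males, with 1 without KO chow replicate 2 or WT chow replicate 4.

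Signs turned only for named members near 0 that did not pass. The log2 fold change of *Efemp1* in chow-fed KO females was 0.18 with total counts and, over the fits without a library, lay between -0.0862 (without WT replicate 2) and 0.0936 (without KO replicate 4), turning also without KO replicate 1 and WT replicates 3 and 4. That of *Fn1* was -0.0758 to 0.130 in females over the fits without a library, lowest without WT replicate 1, and 0.22 there with total counts, and 0.19 in males with total counts, and that of *Ecm1* for the drug in KO males was 0.0273 without KO SC-435 replicate 1. Total counts moved the median of all genes to 0.17 and 0.29 in chow-fed KO females and males, to -0.18 and -0.23 for the drug in them, to -0.17 and -0.29 in their interactions and to -0.12 for sex by genotype. With 4 mice a group, the male comparisons had the larger standard errors.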
